A study of Mus musculus with 380 samples.

Results

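Immediate-early-high and immediate-early-low T cells were compared within 4 plates of T cells taken from tumours of B16F10, a mouse melanoma line. A cell was scored by how many of Fos, Jun, Ier2, Dusp1 and Nr4a1 lay above FPKM 1 (fragments scaled by transcript length and library size). Cells with 3 or more of the 5 genes were called high, and cells with 0 or 1 were called low. Each of the 4 plates held 94 single cells. Cells with at least 1000 genes above FPKM 1 were kept, which left 72 wild-type and 80 knockout-labelled CD8 cells, and 79 wild-type and 73 knockout-labelled CD4 cells. In that order high cells numbered 37, 61, 44 and 59 and low cells 21, 8, 18 and 5, and the 51 cells with a score of 2 entered neither side. The sides were therefore chosen by measured expression, and all values given for them describe cells so selected, without a test.

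The method was Smart-seq2, in which each well of a plate gives 1 full-length cDNA library. All mice were C57BL/6 and carried B16F10 tumours. They were either wild type (WT) or labelled as lacking Il27ra, the gene of the receptor chain that binds interleukin-27, and each genotype gave 1 plate labelled CD8 and 1 labelled CD4. Titles carry a single code for each genotype and no label counts the mice, so genotype, mouse and plate cannot be told apart, and WT CD4 titles carry p2 where the others carry p1, with no label that says what this means. The labels give no age, sex or day after tumour injection, and the stated isolation names CD8+ cells only. Il27ra itself was above FPKM 1 in 40 of 61 high and 3 of 8 low cells of the CD8 plate labelled knockout, and in 30 of 59 and 3 of 5 of the CD4 plate, so these plates are called KO-labelled. Where 4 values follow each other they are in the plate order WT CD8, KO-labelled CD8, WT CD4, KO-labelled CD4.

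Immediate-early genes are transcribed within minutes of a stimulus, without new protein synthesis, through factors such as SRF and CREB that are already present in the cell. In T cells the stimulus can be the antigen receptor, a cytokine or stress, including the dissociation of a tissue. Fos and Jun encode subunits of the AP-1 transcription factor, Nr4a1 encodes an orphan nuclear receptor whose transcription follows antigen receptor signalling, Dusp1 encodes a phosphatase that switches off MAP kinases, and Ier2 encodes a small nuclear regulator. Many of these transcripts are short-lived and are degraded by proteins that the same response induces.

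The promoters of the scored genes Fos, Jun, Dusp1 and Nr4a1 are shown because the score rests on genes read out together. No window was available for Ier2, the remaining scored gene. Those of Btg2, Junb and Zfp36 are shown because these genes, chosen after their values were seen, ranked high in the slopes. Each line gives the 250 bases before the RefSeq start (GRCm38.p6), 5′ to 3′ on the strand of the gene. Capitals mark matches on either strand to the cAMP response element TGACGTCA or its core TGACG (which overlap), to the AP-1 site TGANTCA, to the CArG box bound by SRF and to the NF-kB site.
Fos, chr12:85473640-85473889, plus strand: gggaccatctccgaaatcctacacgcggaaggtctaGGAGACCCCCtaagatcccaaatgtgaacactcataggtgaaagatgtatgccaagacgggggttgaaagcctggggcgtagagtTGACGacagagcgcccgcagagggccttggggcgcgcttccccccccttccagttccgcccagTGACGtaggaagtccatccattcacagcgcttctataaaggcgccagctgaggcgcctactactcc
Jun, chr4:95052223-95052472, minus strand: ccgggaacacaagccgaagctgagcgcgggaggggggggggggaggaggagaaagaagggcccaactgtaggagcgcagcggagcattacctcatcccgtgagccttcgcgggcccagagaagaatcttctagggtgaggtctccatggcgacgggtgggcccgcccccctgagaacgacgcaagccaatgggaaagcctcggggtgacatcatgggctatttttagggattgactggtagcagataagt
Dusp1, chr17:26508473-26508722, minus strand: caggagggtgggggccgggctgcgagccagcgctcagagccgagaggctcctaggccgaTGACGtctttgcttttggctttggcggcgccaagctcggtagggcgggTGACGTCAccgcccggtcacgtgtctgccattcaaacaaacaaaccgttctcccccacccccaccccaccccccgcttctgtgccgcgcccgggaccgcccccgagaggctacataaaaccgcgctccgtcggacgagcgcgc
Nr4a1, chr15:101266596-101266845, plus strand: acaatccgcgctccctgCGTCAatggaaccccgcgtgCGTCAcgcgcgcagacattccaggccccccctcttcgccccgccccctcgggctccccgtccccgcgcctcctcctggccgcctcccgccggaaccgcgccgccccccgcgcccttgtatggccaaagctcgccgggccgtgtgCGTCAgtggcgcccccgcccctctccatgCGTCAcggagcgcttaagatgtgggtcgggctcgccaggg
Btg2, chr1:134079156-134079405, minus strand: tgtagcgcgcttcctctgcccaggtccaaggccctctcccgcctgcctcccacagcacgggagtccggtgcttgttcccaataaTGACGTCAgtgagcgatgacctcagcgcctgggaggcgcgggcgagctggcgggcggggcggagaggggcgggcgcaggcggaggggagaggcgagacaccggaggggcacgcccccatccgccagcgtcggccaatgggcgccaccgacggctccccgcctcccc
Junb, chr8:84978749-84978998, minus strand: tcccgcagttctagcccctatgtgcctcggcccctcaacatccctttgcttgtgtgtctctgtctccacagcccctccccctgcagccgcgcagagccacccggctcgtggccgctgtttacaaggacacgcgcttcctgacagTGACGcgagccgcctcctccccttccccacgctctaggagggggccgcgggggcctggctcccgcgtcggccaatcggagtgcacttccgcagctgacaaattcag
Zfp36, chr7:28379229-28379478, minus strand: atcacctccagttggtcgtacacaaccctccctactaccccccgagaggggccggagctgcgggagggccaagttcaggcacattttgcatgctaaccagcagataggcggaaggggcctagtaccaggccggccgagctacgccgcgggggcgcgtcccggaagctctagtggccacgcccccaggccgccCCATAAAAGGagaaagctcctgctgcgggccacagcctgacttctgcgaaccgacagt

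The full cAMP response element was found in the windows of Dusp1 and Btg2. It occurred in 1.62% of 27025 RefSeq windows of this length and in 3.05% of the windows of genes detected in these cells. The core occurred 2 times in Fos, 3 times in Dusp1, 4 times in Nr4a1, 2 times in Btg2 and 1 time in Junb, and at least once in 17.9% of all windows and 30.7% of the 3709 windows of genes detected in these cells. Among the 15 genes ranked highest by slope, 10 had a window in the table, and 7 of these 10 held the core, but over all genes with a slope above 0 on all 4 plates the share was 32.4%, near that of detected genes. The CArG box in Zfp36 had a counterpart in 1.4% of all windows, the NF-kB site in Fos in 7.01% and an AP-1 site, found in none of the 7 windows printed, in 6.87%. In windows of detected genes these shares were 0.944%, 8.39% and 4.21%. The windows of Tuba1b, Tagln2 and Polr1d, the first 3 genes of the 2-plate comparison, held no full cAMP response element, and 1 core in Polr1d. These matches describe letters in a window and no binding was measured.

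The sides were unequal in size and in how much each cell yielded. In CD8 cells the high side held 51.4% of 72 kept WT cells (exact 95% interval 39.3 to 63.3) and 76.2% of 80 KO-labelled cells (65.4 to 85.1). In CD4 cells it held 55.7% of 79 WT cells (44.1 to 66.9) and 80.8% of 73 KO-labelled cells (69.9 to 89.1). The interval of each KO-labelled plate lay above that of the WT plate of its lineage, but these intervals cover counting error between cells only, and each group is 1 plate. Only the WT CD8 and WT CD4 plates had 10 or more cells on both sides. High cells of the WT CD8 plate had a median of 4213 genes above FPKM 1 and low cells 1725. The medians on the other plates, in order, were 2611 against 1884, 2114 against 1874 and 2279 against 1862. The 72 cells left out for fewer than 1000 genes had scores of 0 (56 cells), 1 (15 cells) and 2 (1 cell).

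**Figure D1:**
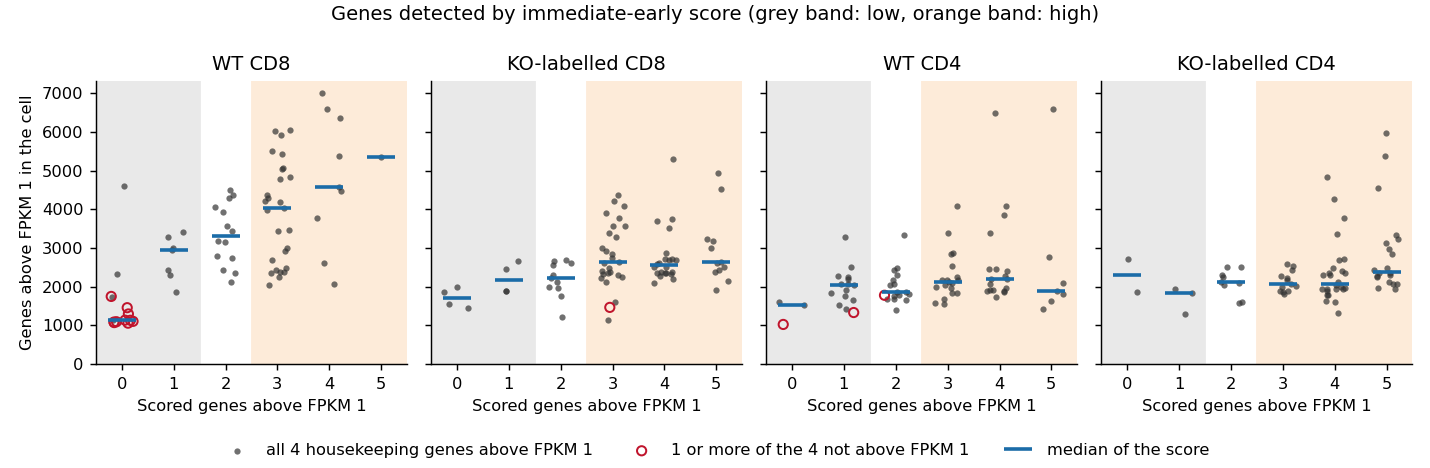
Genes above FPKM 1 in each kept cell (vertical axis) by immediate-early score (horizontal axis, jittered) for the 4 plates, with the low cells on grey and the high cells on orange. Blue bars are medians, and red circles mark cells in which 1 or more of Actb, B2m, Eef1a1 and Tmsb4x lay at or below FPKM 1. On the WT CD8 plate the median goes from 1141 genes at a score of 0 to 4020 at a score of 3, and 10 of its 21 low cells are circled.

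A set of low WT CD8 libraries stood apart from the rest. Actb, B2m, Eef1a1 and Tmsb4x are among the most abundant transcripts of any T cell, and all 4 lay above FPKM 1 in every high cell but 1. In 10 of the 21 low WT CD8 cells at least 1 of the 4 was listed at 0, and in 7 of them 3 or all 4 were at or below FPKM 1. These 10 libraries had a median of 1117 genes and a median summed FPKM of 74925, against 2425 genes and 1003576 for the other 11 low cells of that plate. On the WT CD4 plate 2 low cells had 1 or more of the 4 at or below FPKM 1, in 1 of them listed at 0, and the KO-labelled low sides held no such cell. At least 2 of the 4 CD3 chains (Cd3d, Cd3e, Cd3g, Cd247) were detected in all but 5 high cells and in 40 of 52 low cells, and 8 of the 11 low cells with a single chain were on the WT CD8 plate. The counts of genes are therefore also given without the cells that lacked any of the 4 housekeeping genes.

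Cycling moved with the score on the WT CD8 plate. Cells with at least 5 of 20 cell cycle genes above FPKM 1 made up 94.6% of high and 38.1% of low WT CD8 cells. On the other plates, in order, they made up 68.9% and 50%, 54.5% and 44.4%, and 57.6% and 60%. Without cycling cells only 19 WT CD8 cells remained, 2 of them high (10.5%), whereas the share of high cells was 65.5%, 50% and 80.6% on the other plates. High WT CD8 cells also had more genes detected, and the part of cycling in the results of that plate was not tested.

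The 5 scored genes differed in how often they were seen. Dusp1 was detected in 62.5%, 86.2%, 72.2% and 89% of kept cells in plate order. Ier2 was detected in 58.3%, 86.2%, 48.1% and 84.9%, Nr4a1 in 50%, 63.8%, 58.2% and 69.9%, and Fos in 40.3%, 55%, 60.8% and 79.5%. Jun was the rarest of the 5 on every plate, with 6.94%, 27.5%, 30.4% and 38.4%. All 5 genes were seen least often on a WT plate, and most often on the KO-labelled CD4 plate except Ier2, which was most frequent on the KO-labelled CD8 plate.

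**Figure D2:**
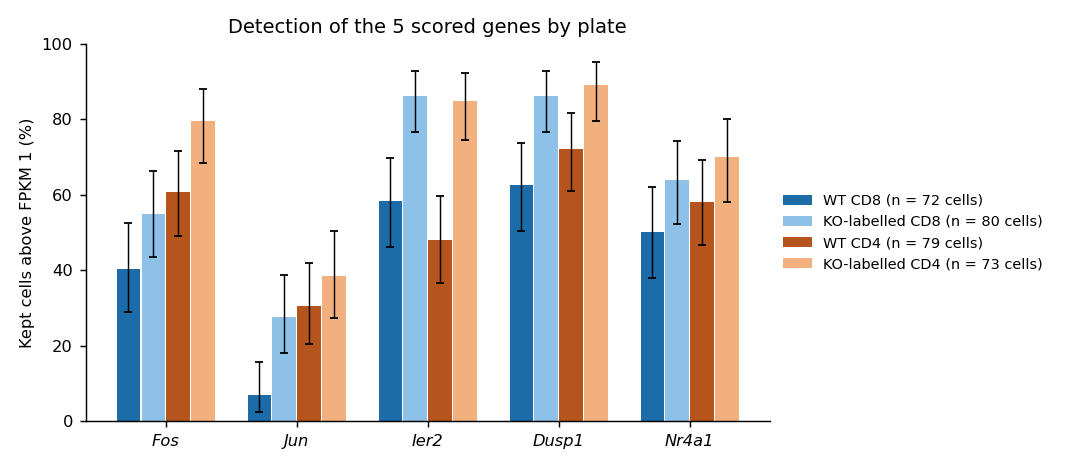
Detection of each scored gene on the 4 plates, as the percentage of kept cells in which it lay above FPKM 1 (vertical axis). Error bars are exact 95% intervals for counting error between cells. Jun has the lowest bar on every plate, from 6.94% to 38.4%, and Dusp1 reaches 89% in KO-labelled CD4 cells.

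Where detected, the scored genes were abundant and spread widely between cells. Fos ran from 72.8 to 15200 FPKM with a median of 2050 in the KO-labelled CD4 cells that had it, and from 13.8 to 2110 with a median of 220 in WT CD8 cells. Dusp1 had medians of 746, 813, 1460 and 2880 FPKM over the cells that had it, and Jun, far lower, had a median of 18.3 FPKM in WT CD8 cells and 98.2 FPKM in KO-labelled CD8 cells. The wells labelled as populations, 1 on each plate, ordered the plates alike for Fos at 631, 1320, 1370 and 3600 FPKM, and for Dusp1 at 1220, 2340, 2620 and 3900 FPKM. Nr4a1 wells and cell medians also put the plates in 1 order, whereas those of Ier2 and Jun did not. The WT CD4 well was lowest for Ier2, at 45.9 FPKM, while the cell median was lowest on the WT CD8 plate, and for Jun the cell median was highest on the WT CD4 plate but the well on the KO-labelled CD4 plate. Each well is a single library.

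Combinations of the scored genes differed between plates. The full set of 5 was found in 1 of 37 high WT CD8 cells, and in 12 of 61, 7 of 44 and 20 of 59 of the other plates. The most frequent combination was Ier2, Dusp1 and Nr4a1 on the WT CD8 plate, with 11 of 37 cells, and Fos, Ier2, Dusp1 and Nr4a1 on the other plates, with 15 of 61, 9 of 44 and 21 of 59 cells.

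Each scored gene was then compared between cells with 2 or more of the other 4 genes and cells with none of them, so that no gene chose its own cells. The difference of mean log2(FPKM + 1) averaged 6.10 for Fos, 4.79 for Nr4a1, 4.53 for Ier2, 4.34 for Dusp1 and 1.63 for Jun over the 4 plates. It was above 0 for every gene and plate except Dusp1 on the WT CD4 plate. There Dusp1 was detected in 71.7% of the 53 cells with 2 or more of the others (exact 95% interval 57.7 to 83.2) and in 78.6% of the 14 cells with none (49.2 to 95.3), a difference of -0.90. Of the 15 WT CD4 cells with a score of 1, 11 had Dusp1 as their single gene, and Dusp1 was above FPKM 1 in 61.1% of low WT CD4 cells. The cells with none of the other 4 were few, 2 to 6 on the KO-labelled plates and 4 on the WT CD4 plate for every gene but Dusp1. They had a lower median number of genes for every scored gene on the WT CD8, KO-labelled CD8 and WT CD4 plates (1141 against 4020 for Fos on the first), and the part of yield in these differences was not tested.

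At the edges of the rule the cells differed by 1 gene. Cells with a score of 3, just inside the high side, carried Dusp1 in 85.2%, 85.2%, 78.9% and 84.6% of cases in the plate order above, and Fos in 55.6%, 44.4%, 73.7% and 76.9%. Cells with a score of 2, just outside it, carried Dusp1 in 64.3%, 90.9%, 47.1% and 66.7% and Fos in 28.6%, 9.09%, 52.9% and 22.2%. Jun was seen in 0 of 14, 0 of 11, 4 of 17 and 1 of 9 cells with a score of 2. The score counts these same genes, so the mean share over all scored genes was fixed at each score. Lower shares at a score of 2 than at 3 were therefore largely set by the rule. Only the split of the shares between the scored genes was left free.

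The comparison asked for by the rule, high against low within the 2 plates with 10 or more cells a side, returned most genes as higher in high cells. Of 6531 genes above FPKM 1 in at least 20% of a side, 4573 (70%) had a higher mean log2(FPKM + 1) in high cells on both WT plates, and 4.64% a lower one. With a floor of 1 on the log2 scale on both plates 1384 genes (21.2%) were higher and 1 gene (0.0153%) was lower. The median difference of all genes was 1.96 on the WT CD8 plate and 0.43 on the WT CD4 plate, and 0.70 and 0.54 on the KO-labelled CD8 and CD4 plates that the rule left out. Without the cells lacking a housekeeping gene 60.8% of genes were higher and 6.49% lower on both plates, and the median differences were 1.28 and 0.35. The median difference followed the order of the gap in genes detected between the sides of the 4 plates, and being higher in high cells was shared by most genes. Median summed FPKM was also higher in high cells. In plate order it was 1139064 against 502770, 802506 against 601973, 688697 against 588462 and 749192 against 596735. The part of summed FPKM in this shift was not tested.

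In cells matched on genes detected, or adjusted for them, the median gene was near 0. Genes detected are counted over the same genes, so a median near 0 was largely set in advance. The cause of the shift was not tested. When 1 high and 1 low cell were paired on genes detected, the WT CD4 plate alone kept 10 or more pairs (16 pairs), and there 3337 genes (51.1%) were higher and 3104 (47.5%) lower. In a linear adjustment for log2 of genes detected 1628 genes (24.9%) were higher and 1767 (27.1%) lower on both WT plates, and the median of all genes was -0.02 on both.

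**Figure D3:**
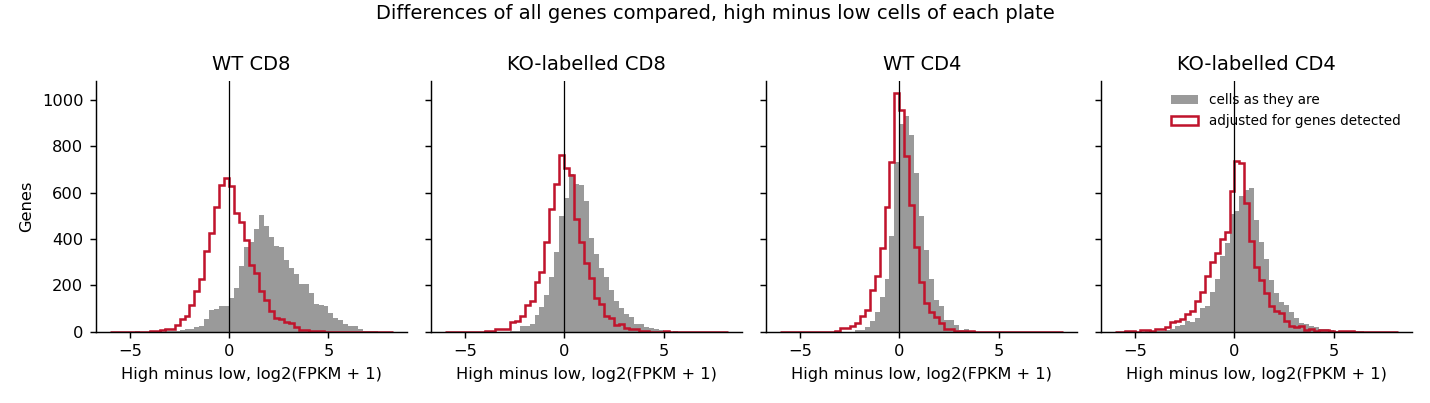
Histograms of the difference of mean log2(FPKM + 1), high minus low, for the 6531 genes compared on each plate (horizontal axis, values beyond the ends drawn in the last bar; vertical axis, genes). Grey bars are the cells as they are and red lines the difference adjusted for genes detected. The grey distribution of the WT CD8 plate is centred on 1.96, and each red line is centred between -0.02 and 0.09.

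The genes named by the rule fixed for this comparison, which needed the same direction in the paired WT CD4 cells, were led by Tuba1b, a tubulin, with a difference of 6.53 on the WT CD8 plate and 4.85 on the WT CD4 plate, Tagln2, an actin-binding protein, with 6.37 and 4.43, and Polr1d, a subunit of RNA polymerases I and III, with 4.39 and 4.18. Of the other 12 of the 15, 11 were Actn4, Pdha1, Cs, Cd69, Atp5b, Tcp1, Dynlrb1, Ptbp1, Sepw1, Gnb2l1 and Psmc4. Tuba1b was detected in 34 of 37 high and 11 of 21 low WT CD8 cells, with medians of 4620 and 4.42 FPKM, and in 29 of 44 high and 4 of 18 low WT CD4 cells, with medians of 422 and 0 FPKM. High and low cells overlapped, since single low cells reached 1850 FPKM on the first plate and 895 FPKM on the second while the lowest high cells were at 0. Tubulin genes are near-identical, so the split of reads between Tuba1b and its paralogs is uncertain.

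Several of these names did not carry over to the other plates or past the adjustment. Tuba1b differed by 1.91 and 0.68 on the KO-labelled CD8 and CD4 plates, and by 0.91, -0.36, 3.36 and -1.25 in plate order after adjustment for genes detected. Tcp1, a chaperonin subunit, went from 5.04 on the WT CD8 plate to -0.10 after adjustment. Tagln2 stayed above 0 on all 4 plates after adjustment, at 2.79, 2.74, 3.39 and 2.53. Without the libraries lacking a housekeeping gene the WT CD8 differences of all 15 were smaller, and for all but Cd69 and Pdha1 by more than 1.5 times. That of Tuba1b was 3.99, of Tagln2 3.6, of Polr1d 2.01, of Tcp1 2.79 and of Gnb2l1 1.41 (4.85 with them).

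Genes lower in high cells were few. Fam160b2 was the one gene lower by 1 or more on both WT plates, with -1.11 and -1.42, and its medians were 1.60 in high and 7.26 FPKM in low WT CD8 cells, and 0.585 and 1.76 FPKM in WT CD4 cells. On the KO-labelled plates it differed by 0.04 and 1.02. The other 9 named were Slfn5, Mbd4, 4930431F12Rik, Arl4c, A330069E16Rik, Tmod1, N4bp1, A330032B11Rik and Nmrk1. Slfn5, a member of the schlafen family, had medians of 5.02 in high and 14.8 FPKM in low WT CD8 cells, and 3.90 and 6.57 FPKM in WT CD4 cells. Without the cells lacking a housekeeping gene Fam160b2 differed by -0.76 and -1.44, Slfn5 went from -1.15 to -0.58 and A330032B11Rik went from -0.73 to 0.07 on the WT CD8 plate, and 11 genes (0.168%) were lower by 1 or more on both plates. The 3 names ending in Rik are uncharacterised transcripts, and without strand their reads cannot be told apart from those of overlapping genes.

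A second measure was therefore added after the data were seen, which uses every kept cell of all 4 plates. For each gene the change of mean log2(FPKM + 1) per further scored gene detected was fitted within each plate, with log2 of genes detected as a second term, and is called the slope. Of 4914 genes detected in at least 20% of kept cells, averaged over plates, 7.71% had a slope above 0 on all 4 plates and 8.49% a slope below 0 on all 4. The median slope of all genes lay between -0.01 and 0.01 on every plate, and the term for genes detected largely sets it near 0. Without cells lacking a housekeeping gene the shares were 7.71% and 7.73%. Slopes can also share a sign on 4 plates without a link to the score, and how often they did so was not tested.

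Ranked by the slope on the plate where it was smallest, the 15 highest genes included immediate-early transcription factors and inducible inhibitors of the same response. Others, such as Atp5b and Dars, belong to neither group. Of the 15, 14 were Btg2, Junb, Zfp36, Nfkbiz, Ppp1r15a, Cd69, Tnfaip3, Atp5b, Klf13, Csrnp1, Dars, Clk1, Fam107b and Egr1. This ranking, and the list members named for having 1 sign on all 4 plates, were chosen after the values were seen. The lists were also written with earlier results of these cells known. Among cells that were not cycling 16 of the 25 highest and lowest genes kept 1 sign on every plate, and Zfp36, Clk1 and Lgals3 were among those that did not. With a cell filter of 2000 genes Cd69, Atp5b and Clk1 of the 15 highest lost it.

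**Figure D4:**
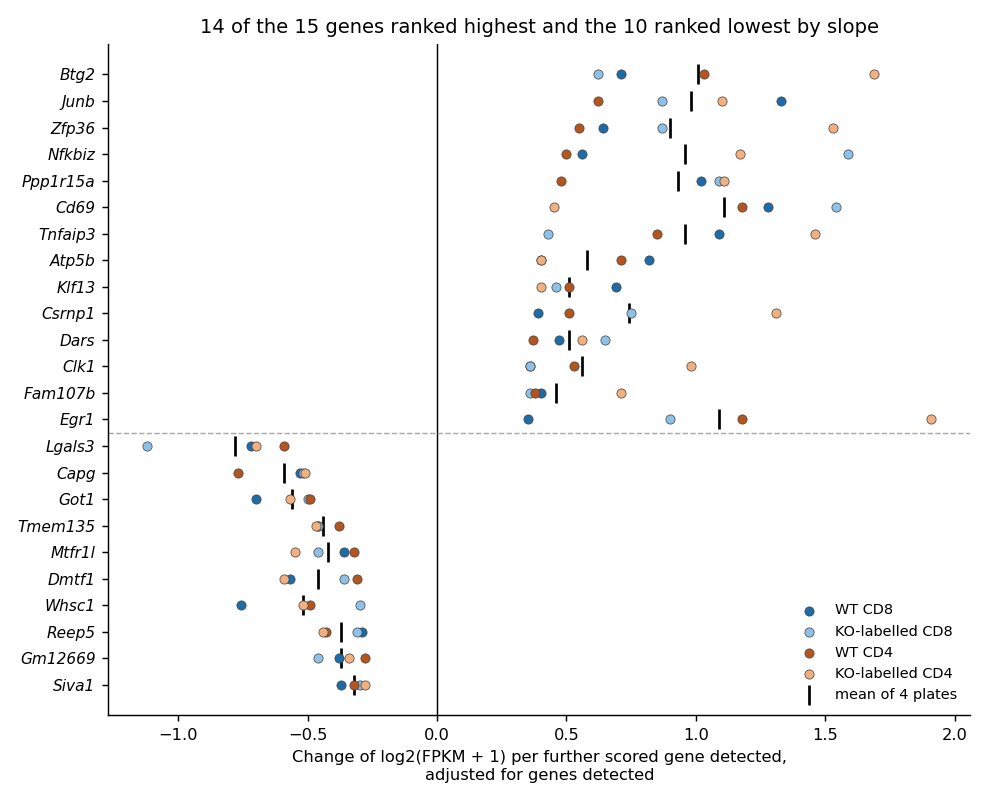
Slope on each plate (horizontal axis, change of mean log2(FPKM + 1) per further scored gene detected, adjusted for genes detected) of 14 of the 15 genes ranked highest and the 10 ranked lowest. Coloured points are plates and black ticks are means of the 4 plates. Cd69 has the highest mean, 1.11, and Lgals3 the lowest, -0.78.

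Junb, an AP-1 subunit that was not scored, went with the score on every plate. It was detected in 34 of 37 high and 8 of 21 low WT CD8 cells, with medians of 1080 and 0 FPKM and highest values of 4560 and 1790 FPKM. The 21 low WT CD8 cells, here and in all counts of single genes below, include the 10 libraries that lacked a housekeeping gene. The part of these libraries in the low counts was not tested. In KO-labelled CD8 cells it was detected in 60 of 61 high and 5 of 8 low cells, with medians of 2310 and 391 FPKM. All 44 high WT CD4 cells had it, at up to 8350 FPKM and a median of 2430 FPKM, against 15 of 18 low cells with a median of 992 FPKM. In KO-labelled CD4 cells the counts were 58 of 59 and 3 of 5, with medians of 5080 and 398 FPKM. High and low cells overlapped on all 4 plates, and the slopes were 1.33, 0.87, 0.62 and 1.1 (mean 0.98 ± 0.31 SD, n = 4 plates).

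Egr1, a zinc finger factor induced through SRF, was rarer. It was detected in 17 of 37 high and 1 of 21 low WT CD8 cells, then in 26 of 61 and 1 of 8, 20 of 44 and 1 of 18, and 34 of 59 and 0 of 5 cells of the other plates. The last of these allows a share of up to 52.2% (exact 95% interval), and the slopes were 0.35, 0.90, 1.18 and 1.91. Of the 26 other immediate-early factors listed, 14 were detected often enough to be ranked, and 7 of these 14 had a slope above 0 on all 4 plates (Fosb, Fosl2, Junb, Egr1, Klf6, Nr4a3 and Csrnp1), against 7.71% of all genes. None of the 14 was below 0 on all 4. Fosb had 0.01 on the WT CD8 plate and 0.52 to 0.76 elsewhere, and Nr4a3, the relative of Nr4a1, had 0.12 to 0.61. Jund (0.01, -0.01, 0.08 and 0.24), Atf4 (0.83, 0.16, -0.26 and 0.75) and Myc (0.71, -0.19, -0.04 and 0.06) did not keep 1 sign. The median slope of the list was 0.34, 0.32, 0.11 and 0.50.

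Some genes that break down or dampen such transcripts also had slopes above 0 on all 4 plates. Btg2, an antiproliferative protein that recruits deadenylases, was detected in 28 of 37 high and 4 of 21 low WT CD8 cells (75.7%, interval 58.8 to 88.2, and 19%, interval 5.45 to 41.9). In WT CD4 cells the counts were 34 of 44 and 9 of 18, with a median of 2.5 FPKM in low cells and highest values of 2880 and 1210 FPKM, so the sides overlapped. On the KO-labelled plates Btg2 was seen in 55 of 61 high and 5 of 8 low CD8 cells and in 51 of 59 high and 3 of 5 low CD4 cells. Its slopes were 0.71, 0.62, 1.03 and 1.69. Zfp36 encodes tristetraprolin, which binds AU-rich elements and hastens the decay of Fos and cytokine transcripts, and had slopes of 0.64, 0.87, 0.55 and 1.53. Ppp1r15a (GADD34), which reverses the translational block of the integrated stress response, had slopes of 1.02, 1.09, 0.48 and 1.11.

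In the list of mRNA decay and stress genes 6 of 16 ranked members had a slope above 0 on all 4 plates (Zfp36, Zfp36l2, Btg2, Tob2, Ppp1r15a and Gadd45b), against 7.71% of all genes, 0 of 16 a slope below 0 and 10 mixed signs. Gadd45b ran from 0.23 on the WT CD4 plate to 1.44 on the KO-labelled CD8 plate. The list median slope was 0.40, 0.25, 0.21 and 0.39. Rgs1, a regulator of G protein signalling in the same list, had 0.31, -0.51, 0.43 and 0.68.

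**Figure D5:**
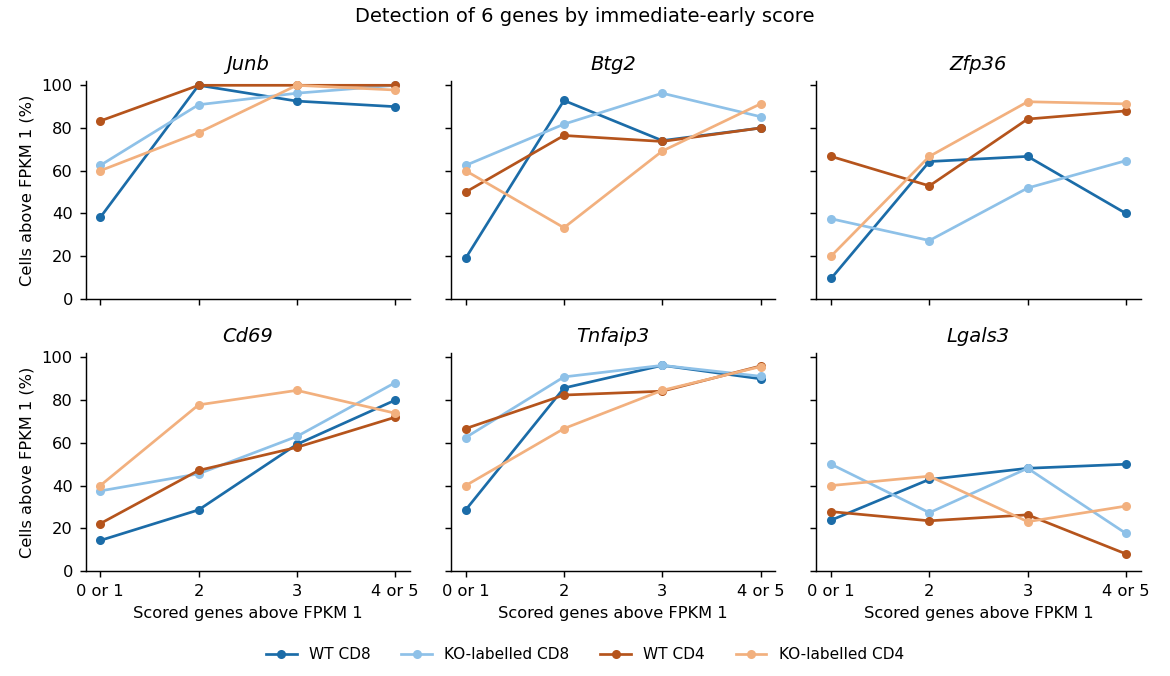
Detection of 6 genes on the 4 plates, as the percentage of cells above FPKM 1 (vertical axis), by immediate-early score (horizontal axis). Cd69 goes from 14.3% to 80% of WT CD8 cells and from 22.2% to 72% of WT CD4 cells between scores of 0 or 1 and of 4 or 5, whereas Lgals3 goes from 23.8% to 50% on the WT CD8 plate and is lower at 4 or 5 than at 0 or 1 on the other 3 plates.

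NF-kB feedback genes followed in part. Tnfaip3, which encodes the ubiquitin-editing inhibitor A20, was detected in 35 of 37 high and 6 of 21 low WT CD8 cells, and in 57 of 61 and 5 of 8, 40 of 44 and 12 of 18, and 55 of 59 and 2 of 5 cells of the other plates. Its slopes were 1.09, 0.43, 0.85 and 1.46. Nfkbiz, a nuclear IkB protein, was absent above FPKM 1 from all 13 low cells of the KO-labelled plates and present in 44 of 61 and 49 of 59 of their high cells, while 10 of 18 low WT CD4 cells had it. Finding 0 of 8 CD8 and 0 of 5 CD4 cells allows shares of up to 36.9% and 52.2% (exact 95% intervals). Of 13 ranked members 4 had a slope above 0 on all 4 plates (Nfkbib, Nfkbiz, Tnfaip3 and Birc3), against 7.71% of all genes, and 0 below 0, while 9 were mixed. Nfkbia, the classical inhibitor, was above 0 on 3 plates (0.45, 1.11 and 1.19) and at -0.30 on the WT CD4 plate, and the list median was -0.16 on that plate against 0.28, 0.26 and 0.70 on the other plates.

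Among T cell activation genes Cd69 stood out, and it was the one transcript besides Atp5b named by both the 2-plate rule and the slopes. Cd69 encodes an early activation receptor that holds T cells in tissue. It was detected in 24 of 37 high and 3 of 21 low WT CD8 cells, then in 47 of 61 and 3 of 8, 29 of 44 and 4 of 18, and 45 of 59 and 2 of 5 cells of the other plates. The medians of high cells ran from 87.4 FPKM (WT CD8) to 819 FPKM (KO-labelled CD4) and those of low cells were 0 on every plate, although single low cells reached 564 to 2760 FPKM. The slopes were 1.28, 1.54, 1.18 and 0.45 (1.11 ± 0.47 SD, n = 4 plates). Tagap, a GTPase-activating protein induced on activation, had 1.32, 0.77, 0.17 and 1.56, and Ifng 0.19, 0.39, 0.32 and 0.13. These 3 of 12 ranked members were above 0 on all 4 plates, against 7.71% of all genes, and 0 were below 0. The other 9 were mixed, among them Tnfrsf9 (4-1BB) with -0.87, 0.03, -0.73 and -0.17.

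The cytokine feedback genes Socs1 and Socs3, inhibitors of JAK-STAT signalling, had slopes above 0 on all 4 plates, 2 of 4 ranked members against 7.71% of all genes. Socs1 had 0.92, 0.33, 0.31 and 0.54, and Socs3 had 0.70, 0.28, 0.58 and 0.41. Cish was at -0.46 on the WT CD8 plate and at 0.14, 0.14 and 0.62 on the others. None of the 4 ranked MAP kinase feedback genes kept 1 sign, Dusp2 included (0.26, -0.25, 0.00 and 0.59).

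Of 11 ranked heat shock genes, which respond to protein stress, 3 had slopes above 0 on all 4 plates (7.71% of all genes did), 0 below 0 and 8 mixed signs. Hspa8 had slopes of 0.75, 0.26, 0.04 and 0.53, Hspa5 of 0.20, 0.45, 0.32 and 0.04, and Dnajb9 of 0.24, 0.20, 0.22 and 0.38. The inducible Hspa1a was seen in 5.41%, 3.28%, 6.82% and 5.08% of high cells, too few to be ranked, and its reads cannot be told apart from those of its near-identical copy Hspa1b.

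Among genes of naive and memory T cells 3 had slopes of 1 sign. The transcription factors Tcf7 (1.1, 0.20, 0.64 and 0.23) and Lef1 (0.82, 0.30, 0.50 and 0.21) and the egress receptor S1pr1 (1.04, 0.08, 0.31 and 0.07) had slopes above 0 on all 4 plates, 3 of 11 ranked members against 7.71% of all genes, and the other 8 were mixed. Tcf7 was detected in 7 of 37 high and 0 of 21 low WT CD8 cells and in 18 of 44 high and 3 of 18 low WT CD4 cells. The list median was 0.82 on the WT CD8 plate and 0.21, 0.31 and 0.21 on the other plates.

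Co-inhibitory receptors differed in sign between plates. Pdcd1 (PD-1) had slopes of -1.36 and -0.83 on the WT and KO-labelled CD8 plates and of -0.09 and 0.09 on the WT and KO-labelled CD4 plates, Tigit -0.93, -0.68, 0.04 and 0.45, and Lag3 -1.19, -0.13, -0.54 and 0.27. None of the 10 ranked members kept 1 sign on all 4 plates, and the list median was -0.59, -0.43, -0.13 and 0.15. Without adjustment Pdcd1 was detected more often in high than in low WT CD8 cells (75.7% against 52.4%), so its sign on that plate comes from the adjustment for genes detected. Lag3 too was detected more often in high cells of the WT and KO-labelled CD8 plates (75.7% against 61.9% and 41% against 12.5%). The median difference of the list without adjustment, high minus low, was 2.82, 0.77, -0.02 and 1.16.

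Most effector and cycling genes did not keep 1 sign. Of all genes 7.71% were above and 8.49% below 0 on all 4 plates. Gzmb (granzyme B) had slopes of -0.36, -0.25, -0.42 and -0.02 and Prf1 (perforin) of -0.55, -0.42, -0.19 and -0.22, 2 of 10 ranked cytotoxic genes, and 0 of 10 were above 0 on all 4 plates. The other 8 were mixed, and the list median was 0.55, -0.02, 0.05 and -0.33. Without adjustment the median difference of that list, high minus low, was 4.08, 1.71, -0.15 and -1.3. Of 14 ranked cell cycle genes Top2a and Mcm5 were below 0 on all 4 plates and Tubb5 above 0. The list median was -0.27, 0.01, -0.09 and -0.13. Without adjustment the median difference of the cell cycle list, high minus low, was 4.07, 0.78, 0.76 and 0.55. The list medians below 0 therefore rest on the adjustment for genes detected. None of 11 interferon-stimulated genes and 1 of 13 glycolysis genes (Gapdh, 0.06 to 0.48) were above 0 on all 4, the latter near the share of all genes, and none of either list was below 0 on all 4. Of T cell identity genes 2 of 12 were above 0 on all 4 plates (Lat and Ptprc, 0.02 to 0.48), and of 5 ranked regulatory T cell genes Tnfrsf18 was above and Capg below 0.

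The genes ranked lowest by slope were Lgals3, Capg, Got1, Tmem135, Mtfr1l, Dmtf1, Whsc1, Reep5, Gm12669 and Siva1. Lgals3, which encodes galectin-3, a lectin, was detected in 19 of 61 high and 4 of 8 low KO-labelled CD8 cells, and in 7 of 44 and 5 of 18, and 17 of 59 and 2 of 5 cells of the WT and KO-labelled CD4 plates. On the WT CD8 plate it was seen in 18 of 37 high and 5 of 21 low cells, and its slope there of -0.72 rests on the adjustment. The slopes on the other plates were -1.12, -0.59 and -0.70. Capg, an actin-capping protein, had -0.53, -0.52, -0.77 and -0.51 and Got1, a transaminase of aspartate metabolism, -0.70, -0.50, -0.49 and -0.57. Without adjustment 49.2% of all genes had a slope above 0 on all 4 plates and 1.95% a slope below 0, and 0 of these 10 genes kept a slope below 0.

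The lineage and makeup of the sides were checked against defining genes. Cd8a was detected in 35 of 37 high and 14 of 21 low WT CD8 cells and in 56 of 61 high and 8 of 8 low KO-labelled CD8 cells, and Cd4 in 42 of 44 high and 16 of 18 low WT CD4 cells and in 50 of 59 high and 3 of 5 low KO-labelled CD4 cells. Cd4 was also above FPKM 1 in 3 of 21 low WT CD8 cells and in 0 of 37 high ones, which allows up to 9.49%. Foxp3, which defines regulatory T cells, was seen in 38.6% of high and 38.9% of low WT CD4 cells and in 61% of high and 40% of low KO-labelled CD4 cells. The 2 WT CD4 shares were alike, but their exact 95% intervals were wide, at 24.4 to 54.5 for high and 17.3 to 64.3 for low cells.

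Genes of other cell types were found in some cells of both sides. Cells with 3 or more genes of 1 other-cell list above FPKM 1 numbered 7 of 37 high and 1 of 21 low WT CD8 cells, then 4 of 61 and 3 of 8, 1 of 44 and 0 of 18, and 4 of 59 and 0 of 5 cells of the other plates. Summed macrophage and monocyte genes ran from 0 to 169000 FPKM in high WT CD4 cells and from 0 to 41800 FPKM in high KO-labelled CD4 cells, with 9 of 9 genes detected in at least 1 cell and a median of 0 on both. In the low cells of these plates 2 of 9 and 1 of 9 of the genes were detected. The low sides held fewer cells, so these numbers of genes cannot be compared directly between the sides. Cells with 3 or more of these genes numbered 1 of 44 and 3 of 59 high cells and 0 of 18 and 0 of 5 low cells. Summed dendritic genes reached 131000 and 104000 FPKM in the high cells of the WT and KO-labelled CD4 plates, with 5 of 7 genes detected and Flt3 and Clec9a at 0. NK genes reached 3540 FPKM in the 8 low KO-labelled CD8 cells and 12300 FPKM in the high cells of that plate, with 6 of 7 and 7 of 7 detected, and Ncr1 at 0 in the low cells. Their summed median was above 0 in these low cells and 0 FPKM in the high ones, and 2 of the 8 low and 3 of the 61 high cells had 3 or more of them. The part of NK genes in the results of that plate was not tested. The median summed level of the melanoma, dendritic and stromal lists was 0 on both sides of all 4 plates. Tyr and Xcr1 were not counted. Tyr lay above FPKM 1 in 96.7% to 100% of the cells of every side and Xcr1 in 16.7% to 75%. Without cells with other-type genes 24 of the 25 slope-ranked genes kept their sign on every plate, Siva1 being the exception.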

How the data were processed

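The authors deposited 1 table of FPKM values for Smart-seq2 libraries of 94 single cells and 1 population well on each of 4 plates, with TMM scaling, per the table's name in the labels. The submitters' processing notes name Bowtie, RSEM and mm10, without versions. No read counts were used, so the depth of each cell is unknown, and the number of genes above FPKM 1 stood in for it. RSEM shares reads between similar genes, which makes paralogs uncertain.

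Differences were taken between means of log2(FPKM + 1) within a plate, for genes above FPKM 1 in at least 20% of a side, with the 5 scored genes left out. Cells are not replicates and the sides were selected on expression, so no test was run. Intervals of shares are exact (Clopper-Pearson, 95%) and hold only the error of counting cells. Cells were also paired 1 to 1 within a plate on genes detected (within 0.2 on the log2 scale), or genes detected were a linear term. The number of identical library pairs was 0.

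The 15 genes named as higher and 10 as lower had the same sign on both plates with 10 cells a side and in the paired cells, ranked by the smaller difference. The pairing part of that rule used the WT CD4 plate alone. The part of the rule on lineage was not applied, since 1 plate per lineage qualified. Slopes over all 4 plates were added after seeing the data. The members and lists were chosen with earlier results of these data known. Some genes that these rankings name are not reported here. Alternatives covered the pseudocount, gene and cell filters, scored genes, plates, cycling cells and cells with other-type genes. Calculations used Python 3.11.15, numpy 2.4.6, pandas 2.3.3, scipy 1.17.1 and matplotlib 3.10.9, and the scripts were tested on simulated data. The simulation shuffled the scored genes between cells of a plate, so it did not cover a link of the score with genes detected.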

Additional observations from a re-analysis of the deposited data

How the results depend on the processing

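No paired analysis across plates was possible, because no label ties a well of 1 plate to a well of another. No result comes from a test. The cells called paired here are high and low cells of 1 plate matched on genes detected. A cell filter of 2000 genes left no plate with 10 cells a side and gives no share of genes. The causes of the shifts given here were not tested. Sides of 4 or more against 0 to 2 (4 plates), removal of cells lacking a housekeeping gene, and the slopes were chosen after seeing the data. Some settings left 1 plate: WT CD8 with sides of 4 or more against 0 and with Fos, Jun, Ier2 or Nr4a1 out of the score, and WT CD4 in paired cells and without cycling cells. Values are percentages of the genes compared, whose number changes with the setting. Genes higher on every plate (70%) were 71.3% with a gene filter of 50%, 49.9% with none and 89.9% for 4 or more against 0. They were 50.8% paired, 24.9% adjusted for genes detected, 31.1% centred and 72.2% to 90.4% leaving out a plate. With Fos, Jun, Ier2 or Nr4a1 out of the score they were 87.7%, 87.5%, 89.7% and 88.3%. They were 61.1% without cycling cells, 55.6% without cells above 4000 genes and 45.5% for 4 or more against 0 to 2. Genes lower on every plate (4.64%) were 5.70% and 6.34% with gene filters of 10% and 50%, 5.68% with none, 10.1% for 4 or more against 0, 49.2% paired, 27.1% adjusted, 31.1% centred, 9.62% to 27.8% leaving out a plate, 12.3%, 12.5%, 10.3% and 11.7% without Fos, Jun, Ier2 and Nr4a1, 38.9% without cycling cells, 9.59% without cells above 4000 genes and 1.81% for 4 or more against 0 to 2. Genes higher by 1 or more (21.2%) were 35.9% and 6.38% with pseudocounts of 0.1 and 10, 37.6% with a gene filter of 50%, 73.8% for 4 or more against 0, 19.5% paired, 3.0% adjusted, 6.81% centred, 28.4% to 71.3% leaving out a plate, 74.5%, 74.6%, 72.8% and 73.9% without Fos, Jun, Ier2 and Nr4a1, 15.3% without cells above 4000 genes and 4.67% for 4 or more against 0 to 2. Genes lower by 1 or more (0.0153%) were 0.199% and 0% with those pseudocounts, 0.114% with a cell filter of 500 genes, 2.89% for 4 or more against 0, 18.2% paired, 2.07% adjusted, 1.84% centred, 0.398% on the log2 of mean FPKM, 2.06% to 4.02% leaving out a plate, 3.56%, 3.51%, 2.70%, 0.0313% and 3.42% without Fos, Jun, Ier2, Dusp1 and Nr4a1, 11% without cycling cells, 0.0416% without cells above 4000 genes, 0.0304% without cells with other-type genes, 0.168% without cells lacking a housekeeping gene and 0% for 4 or more against 0 to 2.

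In cells paired on genes detected 51.5%, 37.4% and 13.8% of genes were higher and 48.5%, 36.5% and 12.1% lower with a gene filter of 50%, with none (both WT CD4) and for 4 or more against 0 to 2 (every plate but WT CD8). The share of high WT CD8 cells was 10.5% without cycling cells and 34.8% without cells above 4000 genes, and that of KO-labelled CD8 cells 86.4% with a cell filter of 2000 genes. Against the other 4 scored genes Ier2 differed by 6.31 and 2.80 and Nr4a1 by 6.70 and 2.99 with pseudocounts of 0.1 and 10, and Nr4a1 by 3.24 with a cell filter of 2000 genes. Slopes above 0 on every plate made up 49.2% unadjusted, 12.4% with a gene filter of 50% and 13.3% to 14.6% on 3 plates, and slopes below 0 made up 1.95%, 7.56% and 13.8% to 15.5%.

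The sign turned for N4bp1 with sides of 4 or more against 0 (0.71) or 0 to 2 (0.01) and with Fos (0.40), Jun (0.39), Ier2 (0.10) or Nr4a1 (0.42) out of the score, and for Arl4c without Fos (0.23), Jun (0.38) or Nr4a1 (0.33). The median difference of the NF-kB list was -0.25 paired and -0.04 adjusted, of T cell identity -0.17 paired, of T cell activation -0.23 and cell cycle -0.47 adjusted, and of naive and memory genes -0.02 centred. The median slope of T cell activation was -0.00 without Nr4a1. Unadjusted mean slopes were above 0 for Capg (0.25), Got1 (0.15), Mtfr1l (0.06), Reep5 (0.33), Gm12669 (0.29) and Siva1 (0.50), and without cycling cells for Reep5 (0.21) and Siva1 (0.05). Of the 25 slope-ranked genes 16 kept their sign on every plate among cells that were not cycling, and 20 with a cell filter of 2000 genes. Those that lost it in the former included Zfp36, Clk1, Lgals3, Got1, Dmtf1, Reep5, Gm12669 and Siva1, and those in the latter were Cd69, Atp5b, Clk1, Got1 and Siva1.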
